A study of Bos taurus with 12 samples.

Results

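Solute carriers and ATP-driven transporters are the membrane proteins that move amino acids, sugars, ions, vitamins, metals, nucleotides and lipids into and out of cells and organelles. The 80 loci described here were chosen from the 25020 loci of a comparison of bull sperm DNA by the full name of the gene that the authors' annotation gives as closest. They are loci on chromosomes 1 to 29, within 10 kb of an annotated feature whose gene name holds "solute carrier", "ATP binding cassette" or "ATPase phospholipid transporting". They comprise 68 single CpG sites at 48 genes and 12 tiles at 4 genes, 51 genes in all, where a tile is a window of 500 bp. The rule uses names and distances and no methylation value, though it was set with earlier results of these data known. No levels of RNA or protein were measured.

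Sperm (Bos taurus, male) of 12 samples was profiled by enzymatic methylation sequencing, 6 labelled low daughter fertility and 6 labelled high daughter fertility, to compare sperm methylation between bulls by how fertile their daughters are. The labels used here name no breed, age, treatment or batch, and do not say whether each sample is a separate bull. Both tables hold the authors' difference between the groups in percentage points of methylation, with a p-value and a q-value (a p-value adjusted for the number of loci tested). Which group was subtracted is not stated, so a sign is given as listed and tells nothing about which group was the more methylated. Values of single samples and read depth were not analysed here, so no spread between samples stands behind any number, and n is 6 against 6 throughout. A locus is called when its q lies below 0.05 and its absolute difference is at least 10 points.

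Solute carriers are named by family and member, so that SLC7A13 is solute carrier family 7 member 13, and each family shares a fold and, in most cases, a kind of substrate. Many of them use ion gradients or exchange rather than ATP. ATP binding cassette (ABC) proteins spend ATP to export lipids, bile components and drugs, and the phospholipid-transporting ATPases flip lipids between the leaflets of a membrane. Mature sperm rely on bicarbonate and proton exchange, lactate and sugar uptake and sterol loss from the membrane for motility and capacitation, while their chromatin is compact and transcription is largely silent.

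Of the 68 sites 3 were called, at ABCG8, SLC23A2 and SLC7A13, and the remaining sites mostly differed by a few points. The share called was 4.41%, beside 3.24% of the 3208 sites of other named genes within 10 kb on autosomes and 5.94% of all listed sites, so the number of calls is close to that background. Of the 3 calls 1 was positive and 2 were negative, beside 1.5% positive and 1.75% negative calls at other named genes and 1.16% and 4.78% over all listed sites. All listed sites include chromosome X. On autosomes alone 605 of 13502 sites were called (4.48%), 415 of them negative and 190 positive. By q alone the same count of 3 passed, beside 5.05% of sites of other named genes and 8.11% of all. A difference of at least 10 points was listed at 5 sites (7.35%), beside 7.61% and 12.1%. In total 55 of the 68 sites (80.9%) differed by less than 5 points, beside 76.9% of sites of other named genes. The median absolute difference was 1.92 points at transporters and 2.38 points at other named genes.

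**Figure D1:**
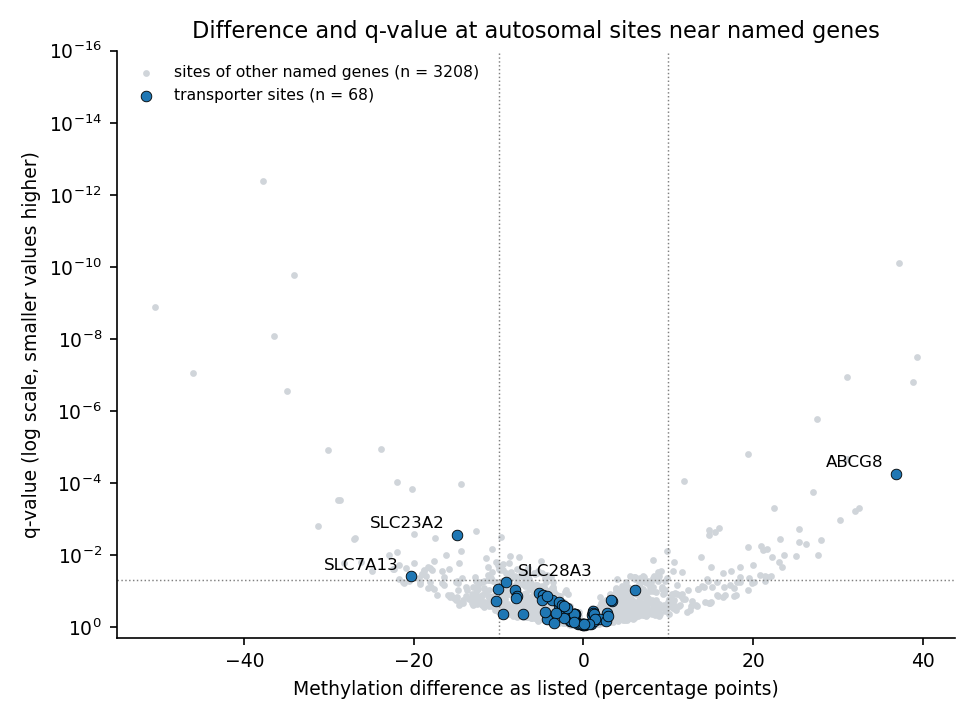
Each point is a CpG site, with the authors' methylation difference in percentage points on the horizontal axis and the authors' q-value on a log axis with small values at the top. Transporter sites are blue (n = 68) and sites of other named genes within 10 kb on autosomes are grey (n = 3208); dotted lines mark 10 points and q of 0.05, and only ABCG8, SLC23A2 and SLC7A13 lie beyond both.

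The largest difference lay in ABCG8, which pairs with ABCG5 to export cholesterol and plant sterols from liver and gut cells. Position 26083589 of chromosome 11 (ARS-UCD1.2) stood at 36.9 points per the authors' deposited table (p = 1.5e-07, q = 5.51e-05). This cytosine is on the plus strand inside an intron of 5272 bp, at positions 26079494 to 26084765, and 1176 bp from its nearer edge. The other 3 listed sites of ABCG8 were close to 0. The next one, 34 bp further along on the same strand, stood at 0.22 points (q = 0.857) per the authors' deposited table. A coding site at position 26090797 stood at -1.36 points and an intronic site at position 26092656 at -0.07 points per the authors' deposited table. Within 100 kb on either side 5 other sites were listed and none of these was called, with values from -3.13 to 0.22 points, and no tile was listed there.

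SLC23A2 carries vitamin C into cells together with sodium and supplies most tissues with it. Its only listed site, position 47268943 of chromosome 13 on the minus strand, was at -14.9 points per the authors' deposited table (p = 1.91e-05, q = 0.0027). The site lies in an intron of 17028 bp, 8046 bp from the nearer edge. Within 100 kb 2 other sites were listed, neither of them called, at 5.81 and 0.06 points per the authors' deposited table.

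SLC7A13 is a kidney transporter of cystine and acidic amino acids, named here from the full name in the authors' annotation, since its symbol was not matched on that chromosome in the RefSeq gene table used. Its only listed site, position 77538917 of chromosome 14 on the minus strand, had -20.3 points per the authors' deposited table (p = 0.00471, q = 0.0379). The authors place it in the promoter, 4897 bp from a 5′ untranslated region of 189 bp, and no other site or tile was listed within 100 kb. This call depends on how p was adjusted. Benjamini-Hochberg values computed over the whole table gave 0.0598 for this site, above the threshold, and 1.47e-03 for SLC23A2 and 3.41e-05 for ABCG8, below it.

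The authors' q-values of sites followed an adjustment chromosome by chromosome, as inferred here from their p-values, which sets how small a p a transporter needed. On each of the 24 chromosomes of the site table q was a near-constant multiple of the Benjamini-Hochberg value computed over that chromosome's listed sites, between 0.755 and 0.877, and 99.0% of sites lay within 1% of their chromosome's multiple. The lowest share on 1 chromosome was 85.9%, on chromosome 16, and on chromosome 15 it was 89.7%. Tiles followed this pattern less closely, with multiples between 0.00488 and 0.611 and 89.9% of tiles within 1%. On chromosome 16, which holds the tiles of SLC25A33, 5.59% of tiles lay within 1%. Chromosome 14 had the largest limit among the chromosomes with transporter sites, since p up to 0.00756 gave q below 0.05 there. The limit was 0.00392 on chromosome 8 and 0.00145 on chromosome 17. An intronic site of SLC28A3, which concentrates nucleosides in cells, had p = 0.00551 and -9.16 points on chromosome 8 and q = 0.0571 per the authors' deposited table. A site of SLC10A7 had p = 0.00583 and -8.06 points on chromosome 17 and q = 0.0913 per the authors' deposited table. Both p-values are below the limit of chromosome 14, and both differences are under 10 points, so neither site would have been called there either.

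**Figure D2:**
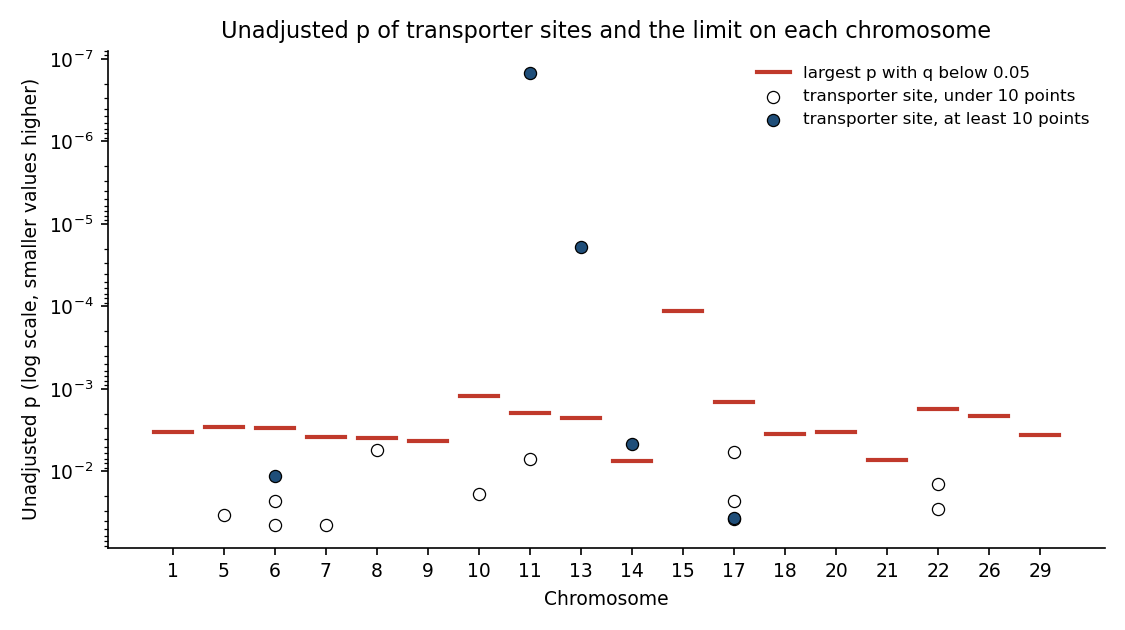
For the 18 chromosomes with transporter sites, red bars give the largest unadjusted p that had q below 0.05 in the authors' table, on a log axis with small values at the top. Points are the 17 transporter sites with p below 0.05, filled where the difference is at least 10 points; only those of ABCG8 (chromosome 11), SLC23A2 (13) and SLC7A13 (14) lie above their bar.

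Just outside the threshold by q stood SLC28A3, SLC4A4 and SLC10A7, all negative. The next by q was a positive site, in SLC20A1, at 6.02 points (q = 0.0958) per the authors' deposited table. SLC4A4, which moves sodium and bicarbonate together, had an intronic site at -10.1 points (p = 0.0114, q = 0.0907) per the authors' deposited table. Of its other sites, one in an intron was at -4.76 points (q = 0.129) and one in the promoter class at 0 points per the authors' deposited table. SLC10A7 belongs to the bile acid carrier family by sequence and is known for its part in skeletal growth. Besides the site at -8.06 points it had an intronic site at -10.3 points, with a q of 0.190 per the authors' deposited table. SLC7A13 had the smallest margin of the called sites by q, and SLC23A2 by size. With no adjustment 17 of the 68 sites had p below 0.05 (25%, 13 negative and 4 positive), beside 19.5% of sites of other named genes and 22.1% of all listed sites.

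Signs leaned to the negative. Of the 65 sites with a difference other than 0, 44 were negative (67.7%) and 21 positive, with a median of -1.09 points over all 68. Sites of other named genes were negative in 55.4% and had a median of -0.27 points, and all listed autosomal sites in 57.9% with a median of -0.71 points. All these values come from the same 12 samples and from differences that mostly have q far above 0.05. No test of the difference between the lists was made.

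The classes that follow are set by family number, so some members carry another substrate than the class name says. Among the 8 genes for amino acids, peptides and related amines, 8 of 10 sites were negative and 1 was called, with a median of -1.46 points. For this and the classes below, the shares at sites of other named genes were 55.4% negative and 3.24% called. No class was tested against them. Beside SLC7A13 the lowest was SLC6A20, a proline transporter, at -5.21 points (q = 0.112) per the authors' deposited table. All 3 sites of SLC7A11, which takes up cystine in exchange for glutamate, were negative, from -4.49 to -0.90 points per the authors' deposited table. SLC6A5 (glycine), SLC15A2 (small peptides) and SLC38A4 (neutral amino acids) stood at -2.90, -1.53 and -1.03 points per the authors' deposited table. SLC38A9, a lysosomal arginine sensor, at 1.48 points and SLC6A2, the noradrenaline transporter, at 0.93 points were the positive ones per the authors' deposited table.

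**Figure D3:**
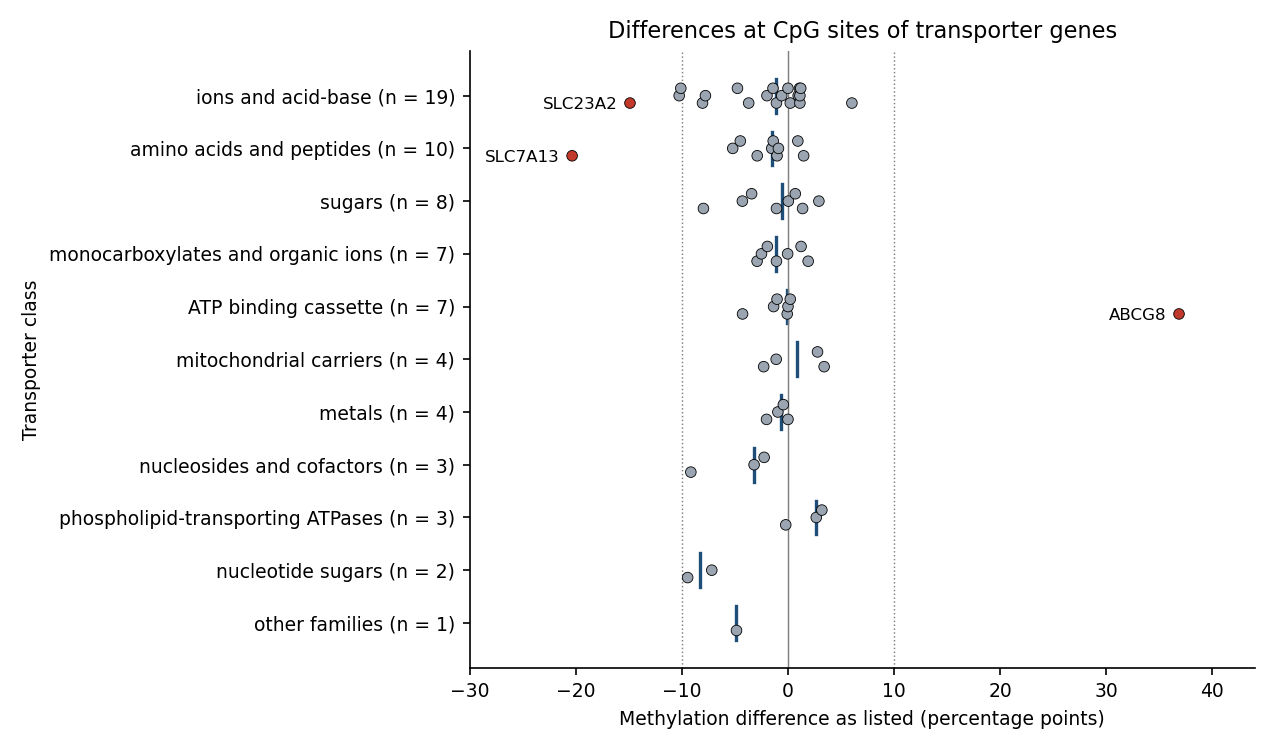
Every transporter site by substrate class, with the authors' methylation difference in percentage points on the horizontal axis. Called sites are red and named, other sites grey, the blue bar is the class median and dotted lines mark 10 points; most sites lie within 5 points of 0 in each of the classes with over 3 sites.

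The 13 genes for ions and acid-base balance, a group that by family number also takes in SLC23A2, SLC10A7 and SLC13A3, had 19 sites, 11 negative, 7 positive and 1 at 0. Sites of other named genes were negative in 55.4% and all listed autosomal sites in 57.9% (61.2% with chromosome X), so this division is close to the background. The 19 sites had a median of -1.09 points, and 8 of the 19 had p below 0.05, beside the 19.5% of other named genes. These 8 include neighbouring sites of SLC10A7, 12 bp apart on the same strand, and more than 1 site of SLC4A4. Not all 8 therefore come from separate genes, and their share was not tested. The bicarbonate carriers of family 4 had no positive site. SLC4A7, another sodium and bicarbonate carrier, was at -7.78 points (q = 0.142) and SLC4A9 at -3.70 points (q = 0.176) per the authors' deposited table. The highest value of the group was 6.02 points (p = 0.00702, q = 0.0958) in an intron of SLC20A1, a phosphate importer, per the authors' deposited table. Sodium-proton exchangers, which help set the pH inside cells and organelles, had 3 sites within 10 kb. The 2 sites of SLC9A4 were at 1.09 and 1.2 points and that of SLC9A9, in coding sequence, at -1.09 points per the authors' deposited table. Deeper in introns of SLC9A9, more than 10 kb from an edge and so not among the 68, sites stood at 5.26 points (q = 0.0944), -6.18 points (q = 0.159) and -0.52 points (q = 0.759) per the authors' deposited table. SLC12A2, which takes up sodium, potassium and chloride together, was at 1.12 points (q = 0.382) per the authors' deposited table. SLC13A3 (dicarboxylates), SLC26A7 (anions) and SLC34A2 (phosphate) lay between -1.41 and 1.12 points per the authors' deposited table.

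The sugar group, 5 genes of families 2 and 5 that include lactate carriers, had 4 negative and 4 positive sites, a median of -0.52 points and no call. SLC2A13, which brings myo-inositol into cells with protons, had 4 sites in 2 introns. They were at -1.08, 1.38, 0.69 and -7.97 points per the authors' deposited table, the last with q = 0.156. SLC5A4, a relative of the sodium-glucose carriers, was at -4.30 points (p = 0.0228, q = 0.142) and SLC2A9, a urate carrier, at -3.43 points (q = 0.751) per the authors' deposited table. The sodium-coupled lactate carriers SLC5A12 and SLC5A8 were at 2.91 and 0.03 points per the authors' deposited table.

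Carriers of monocarboxylates and organic ions had 5 negative and 2 positive sites over 6 genes, none with p below 0.05. SLC16A7, a lactate and pyruvate carrier, had an intronic site at -0.03 points per the authors' deposited table. SLC16A12, a creatine carrier, had 2 sites at -1.09 and -1.94 points per the authors' deposited table. SLCO6A1, an organic anion carrier found mainly in testis, stood at -2.50 points (q = 0.243), and SLCO1B3, which takes up bile acids and drugs in liver, at -2.91 points (q = 0.203) per the authors' deposited table. SLC16A10 (aromatic amino acids) and SLC22A2 (organic cations) were at 1.23 and 1.90 points per the authors' deposited table.

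Mitochondrial carriers had 2 negative and 2 positive sites and no call. SLC25A31 exchanges ADP and ATP across the inner mitochondrial membrane of male germ cells. Its site at position 29881050 of chromosome 17, in coding sequence and 5 bp from its edge, was at 3.41 points (p = 0.0378, q = 0.193) per the authors' deposited table. SLC25A21, a carrier of dicarboxylates, had a promoter site at 2.78 points and an intronic site at -2.29 points per the authors' deposited table. SLC25A36, which carries pyrimidine nucleotides, was at -1.11 points per the authors' deposited table.

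The smaller classes had no call. Metal carriers were between -2.02 and 0 points at 4 sites of SLC11A2-like (iron), SLC39A12 (zinc) and SLC41A2 (magnesium) per the authors' deposited table. The nucleoside and cofactor class had 3 negative sites, 2 at SLC28A3 (-2.25 and -9.16 points) and 1 at SLC49A4 (-3.19 points), per the authors' deposited table. SLC35F2 and SLC35F1, of the nucleotide sugar carrier family, had sites in the authors' promoter class at -9.46 and -7.18 points per the authors' deposited table. That of SLC35F2 lay 7498 bp from coding sequence and that of SLC35F1 9672 bp from a 5′ untranslated region. Their q-values of 0.448 and 0.446 lay above the 0.0571 of SLC28A3 at -9.16 points per the authors' deposited table, and the read depth behind them is unknown. SLC51B, a subunit of the exporter of bile acids and steroids, was at -4.94 points (p = 0.0185, q = 0.183) per the authors' deposited table.

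Beside ABCG8, the site table held 3 ABC genes with 1 site each, none with p below 0.05. ABCA1, which loads cholesterol onto lipoproteins, stood at 0 points per the authors' deposited table. ABCC2, an exporter of conjugated anions into bile, was at -1.03 points and ABCD2, a carrier of very long fatty acids into peroxisomes, at -4.28 points (q = 0.600) per the authors' deposited table. ATP8A1, which flips phosphatidylserine to the inner leaflet, was the only phospholipid-transporting ATPase that the choice by name and distance took. Others were listed under another name or beyond 10 kb. ATP8A1 had 3 intronic sites at -0.21, 3.19 and 2.67 points per the authors' deposited table. The second of these had p = 0.0443 and q = 0.181 per the authors' deposited table.

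Introns held most transporter sites. The closest feature was an intron for 54 of the 68 (79.4%), beside 63.2% of sites of other named genes. In all 55 sites lay inside their feature, 7 in the authors' promoter class and 6 in their downstream class. For a site inside a feature the listed distance runs to the nearer edge, so a site deep in a long intron falls beyond 10 kb and was not taken. Of the 7 promoter sites 5 were negative and 1 was called, and of the 54 sites at introns 32 were negative and 2 were called. At other named genes 31 of 510 promoter sites (6.08%) and 53 of 2029 sites at introns (2.61%) were called.

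Sites a few bases apart could differ widely. At transporters 9 pairs of neighbouring listed sites lay within 100 bp on the same strand, and ABCG8 had the widest gap, 36.6 points over 34 bp. The 3 neighbouring sites of SLC10A7 were 2 negative and 1 slightly positive, in order of position at -10.3, -8.06 and 0.96 points per the authors' deposited table. The SLC28A3 pair, 39 bp apart, was negative at both sites. SLC9A4 had the closest pair, 0.11 points apart. The median gap was 2.46 points at transporters and 3.50 points in 3230 other autosomal pairs. Of the latter, 291 had a called site, the other site of the pair was under 5 points in 119 of these (40.9%), and 2 pairs had a gap as wide as that of ABCG8. None of the 68 sites had the opposite strand of its CpG listed, and none lay inside a listed tile, so no second reading of the same cytosine was at hand.

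**Figure D4:**
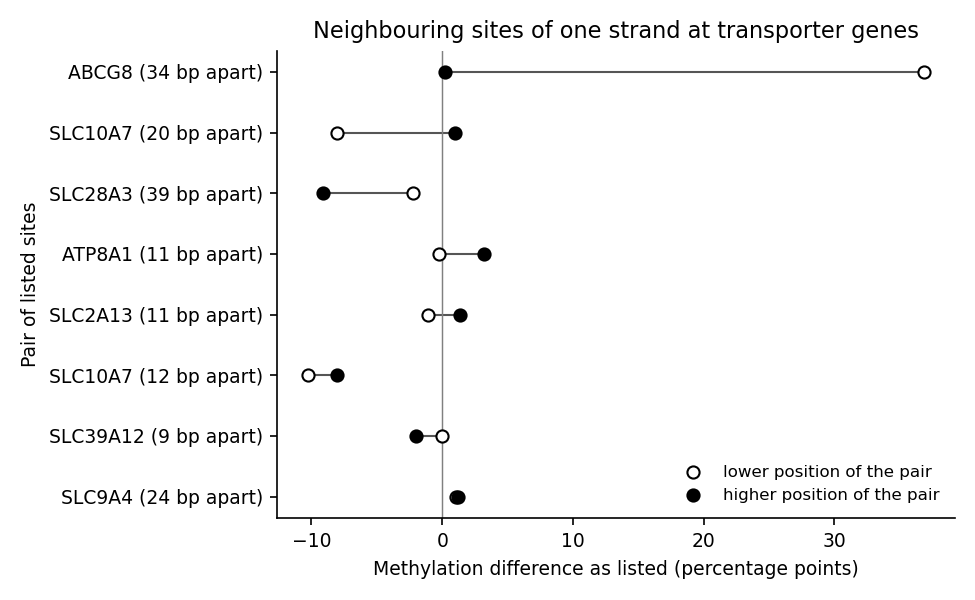
Transporter sites within 100 bp on one strand, 8 of the 9 pairs, with the authors' methylation difference in percentage points on the horizontal axis; open and filled points are the lower and the higher position of a pair, joined by a line. Apart from ABCG8, where the sites are 36.6 points apart, no pair shown is more than 9.02 points apart.

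The 12 tiles showed small differences, none of them called, and 11 were positive. The range was -0.14 to 3.17 points, with a median of 0.87. Of the tiles of other named genes 1.29% were called and 60.1% were negative, and of all listed tiles 2.78% were called, 2.63% negative and 0.151% positive. All listed tiles include chromosome X, and of the autosomal tiles 2.34% were called. By the authors' methylKit values 7 of the 12 transporter tiles had unadjusted p below 0.05 and 8 had q below 0.05, beside 53.5% and 61.1% of the tiles of other named genes and 65.8% and 71.8% of all tiles. A tile's q could lie below its own p, as for a tile of SLC25A33 with p = 0.0773 and q = 0.0381 per the authors' deposited table. Tiles of 1 gene overlap and share CpG sites, so the 12 tiles amount to 4 places. With only the tile of lowest p kept for each gene, the median absolute difference was 1.48 points, a value that rests on this choice by p. Over all tiles the median absolute difference was 0.27 points for the 6 of solute carriers and 2.09 points for the 6 of ABC genes.

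ABCF3, an ABC protein without membrane-spanning parts, had 5 overlapping tiles over its start, at positions 82967901 to 82968800 of chromosome 1. They were at 2.31, 2.26, 1.92, 1.37 and 1.05 points per the authors' deposited table, in order of position, which on this minus-strand gene runs upstream. The second had the lowest q, 1.8e-22, and the last a q of 2.08e-05 per the authors' deposited table. SLC25A33, a mitochondrial carrier of pyrimidine nucleotides, had 5 tiles over its start, from the edge of an intron to the promoter class, at positions 43946401 to 43947300 of chromosome 16. In order of position they were at -0.14, 0.21, 0.33, 0.32 and 0.70 points per the authors' deposited table, and the highest had q = 0.00749. ABCB4, which exports phosphatidylcholine into bile, had 1 tile closest to coding sequence at 3.17 points (chromosome 4, positions 33007501 to 33008000, q = 0.00202) per the authors' deposited table. SLC9A4 was the only gene in both tables, and its tile, closest to coding sequence, was at 0.21 points (q = 0.179) per the authors' deposited table.

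**Figure D5:**
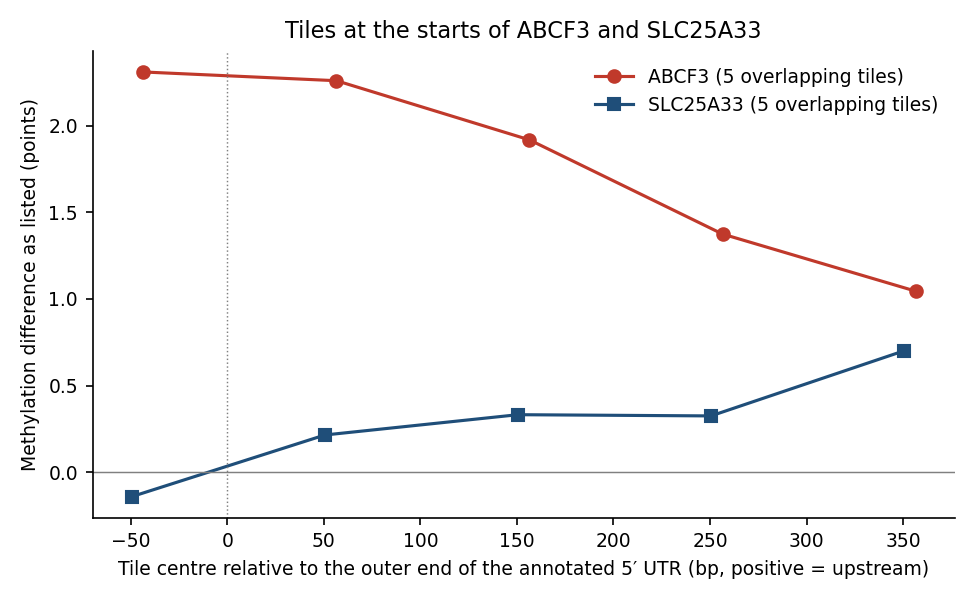
Methylation difference in percentage points of the 5 overlapping tiles each of ABCF3 (circles) and SLC25A33 (squares), against the distance of the tile's centre from the outer end of the annotated 5′ untranslated region, positive upstream. ABCF3 falls from 2.31 to 1.05 points and SLC25A33 goes from -0.14 to 0.70 points.

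Lists of pumps, channels, facilitators and lipid transfer proteins, whose names the choice did not take, had no called locus within 10 kb. At other named genes 3.24% of sites and 1.29% of tiles were called, so the absence of calls in lists this short tells little. Ion and proton pumps gave 5 sites at 4 genes, 4 positive and 1 negative, from -2.37 to 3.80 points. Major facilitators gave 3 sites, all negative and none below -1.92 points, and mitochondrial translocases 2 sites at 1 gene. Lipid transfer proteins and scramblases gave 7 sites at 5 genes from -4.41 to 3.19 points, and 3 tiles of anoctamin 4 up to 0.98 points. No aquaporin was listed. Genes that mark other cells in semen were almost absent from the lists within 10 kb: no leukocyte or epithelial marker had a site or tile, and the only germ line marker was DEAD-box helicase 4 with 1 site at -1.75 points per the authors' deposited table. The share of somatic cells in the samples was therefore not tested.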

How the data were processed

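Sperm genomic DNA of 12 samples (6 low and 6 high daughter fertility) was profiled by enzymatic methylation sequencing, per the labels' protocols. Trimmomatic, Bismark, methylKit and, as build, ARS-UCD1.2 are listed per the submitters' processing notes, without versions or settings. The authors deposited a table of 17730 CpG sites and a table of 7290 tiles, each with a p-value, a q-value, a difference in percentage points and the closest annotated feature. No column holds a single sample's values, so no test between the groups was run here and the p- and q-values are the authors'. How their test treats variation between samples is not given in the sources used here, so a low q is not read as agreement between samples. No listed site lay on chromosomes 2, 3, 4, 12, 23 and 27, and no listed tile on 12, 23 and 27. Transporter genes on those chromosomes therefore could not be taken for the respective list.

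Loci were taken by gene name as described, counted by sign and call, and set beside other named genes (Python 3.11.15, pandas 2.3.3, statsmodels 0.14.6 for Benjamini-Hochberg values). The counting code was tested on simulated data. Symbols were formed from the full names, and 46 of the 48 genes with a site have that symbol on the same chromosome in the RefSeq gene table of ARS-UCD2.0, from which no coordinate was used. SLC7A13 and SLC11A2-like were not matched. Substrate classes follow family numbers. Members and lists were chosen with earlier results of these data known. Named loci are every called one, the 10 genes with the largest site differences and the 5 with the largest tile differences, the 5 with most sites, genes in both tables and the loci nearest the threshold. The rest were named to describe each class, after their values were seen. One gene with 2 sites, neither called, is counted but not reported by name here. No sequence is printed, since no genome of this build was used here.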

Additional observations from a re-analysis of the deposited data

How the results depend on the processing

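The call at SLC7A13 ended when Benjamini-Hochberg values over the whole table replaced the authors' q (0.0598), and stayed within each chromosome (0.0478, an alternative chosen after seeing the data). The count of called transporter sites was 3 and lay between 2 and 4 under the other alternatives, except that ABC and phospholipid-transporting ATPase genes alone had 1 called site at 1 gene and a median absolute difference of 1.19 points over 10 sites. It was 2 at q below 0.01, 2 at a minimum of 20 points, 2 for sites inside a feature, 2 at up to 5 kb and 4 at any distance. The share of negative sites ranged from 55.6% to 69.6%. No tile was called under any alternative run. None could be, since each asked for at least 5 points and the largest tile difference was 3.17 points. No paired analysis was possible because the files hold no values of single samples. For the same reason no sample was left out and no coverage minimum was changed. Read depth per locus is unknown here, and a site with few reads can show a large difference.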

Other observations

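A cluster of amino acid transporter genes on chromosome 18 lay outside the names searched and was chosen with its values known. Its 4 genes are named cationic amino acid transporter 3-like, after a member of solute carrier family 7 that takes up arginine and lysine. All 7 sites within 10 kb of 3 of them (ENSBTAG00000000336, ENSBTAG00000009171 and ENSBTAG00000015061), between positions 61163608 and 61221779, were negative, from -19.0 to -0.47 points with a median of -5.53, per the authors' deposited table. One was called, an intronic site of ENSBTAG00000000336 at -19.0 points (q = 0.0331) per the authors' deposited table. Its Benjamini-Hochberg value over the whole table was 0.0315. Of the 13 sites closest to the remaining gene, ENSBTAG00000051856, 10 were negative and 1 was called (-25.2 points, q = 0.00221, 19650 bp away) per the authors' deposited table, while the highest stood at 15.8 points. Over the stretch from position 61163608 to 61399131, which holds 31 listed sites of any annotation, 26 were negative with a median of -5.53 points, 5 were positive and 3 were called. Elsewhere on chromosome 18, of 990 sites 584 were negative, 380 were positive and 35 were called, with a median of -1.12 points. These genes share 1 name, and how reads were shared among them was not tested, so their values are uncertain. Including their sites within 10 kb, which leaves out those of ENSBTAG00000051856, and 2 other transporters named otherwise raised the count of called sites from 3 to 4.

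Of the transporter genes by name, 45 further sites lay beyond 10 kb and 1 of these was called (2.22%), beside 4.48% of all listed autosomal sites. It was a site 55182 bp from coding sequence of SLC2A13 at -26.4 points (q = 0.00674, chromosome 5, position 41386919) per the authors' deposited table, where the 5 other listed sites of that gene lay between -7.97 and 1.38 points.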
